A study of Mus musculus with 4 samples.

Results

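Transcripts of fatty acid uptake and mitochondrial beta-oxidation were examined in whole hearts of mouse embryos late in gestation (E18.5). The set was chosen by gene symbol and holds 31 genes for uptake, activation, the carnitine shuttle, the steps of beta-oxidation, electron transfer, thioesterases and uncoupling. Of these, 30 were among the 14936 genes of the deposited table, and Ucp3, which encodes an uncoupling protein of muscle mitochondria, was not. All 4 embryos had the C57BL/6 background and carried floxed Adar1 on both chromosomes (flox/flox), so the controls carry the floxed alleles as well. The 2 controls, embryos 47 and 50, had no Nkx2.5-Cre allele (WT/WT), and the 2 mutants, embryos 51 and 54, had 1 (Cre/WT); the genotype field of the mutants calls them both wildtype and KO, and the sample titles were followed. Adar1 encodes an RNA-editing enzyme that turns adenosine into inosine in double-stranded RNA. Nkx2.5-Cre drives recombination in cells that have expressed a transcription factor of the early heart, mainly cardiac muscle and its progenitors, so a whole heart also holds cells outside that lineage. The comparison asks how the hearts differ with and without the Cre allele. Effects of Cre itself and of the loss of Adar1 cannot be told apart, because only the mutants carry Cre. The same holds for any loss of a copy of the gene that Nkx2.5-Cre is named for. The labels do not say whether the Cre allele disrupts that gene.

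Mitochondrial beta-oxidation cuts an acetyl-CoA unit from the fatty acid in each round and passes the electrons to the respiratory chain. Long-chain fatty acids are taken up by carriers at the cell surface, bound in the cytosol, coupled to coenzyme A, and brought into the mitochondrion as carnitine esters. Each round then runs through a dehydrogenase, a hydratase, a hydroxyacyl dehydrogenase and a thiolase. The fetal heart relies largely on glucose and lactate, and fatty acids become its main fuel after birth.

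RNA was measured by poly(A)-selected sequencing of 1 library per embryo. The listed genes held from 7457103 to 8998872 reads in each heart. Values are deposited as CPM, here a read count scaled to an effective library size and not to the plain total of reads. A single read counts for 0.109 to 0.138 CPM depending on the heart. Adar, the symbol of Adar1, stood at 30.2 and 35.7 CPM in controls 47 and 50 and at 195 and 213 CPM in mutants 51 and 54, so its gene-level reads were higher in the libraries labelled mutant. The labels do not name the floxed exons, and reads on exons left in place count too, so this level does not check the deletion, and directions below are those of the labelled libraries. Nkx2-5 stood at 150 and 143 CPM in the controls and at 69.2 and 92.8 CPM in the mutants. Whether the Cre allele itself lowers Nkx2-5, and whether a lower Nkx2-5 bears on the genes below, was not tested. The labelled tissue was met by its markers, since all 18 cardiomyocyte markers were listed, with a summed level between 28448 and 70336 CPM. RNA of the mitochondrial genome took 6.14% of reads in control 47, 6.93% in control 50, 2.08% in mutant 51 and 4.31% in mutant 54. Of the genes tested, 31.9% were called, 14.2% lower and 17.8% higher in the mutants (limma-trend on log2(CPM + 1), Benjamini-Hochberg adjusted p under 0.05 over 14869 genes). The balance depends on the scaling, with 2107 genes lower and 2643 higher as deposited, 2963 and 2253 with upper-quartile scaling, and 2738 and 2188 with quantile normalization.

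The fatty acid genes were lower in the mutant hearts at nearly every step of the pathway. Of 30 listed members, 25 fell, 1 rose and 4 did not pass the threshold, where 14.2% of all genes tested fell. In whole hearts, fewer cells of a type and less RNA per cell cannot be told apart. The exception that rose was Acot2, which encodes a mitochondrial thioesterase. The median log2 fold change of the members was -0.92, beside -0.01 over all genes tested, and single members ranged from -1.61 to 0.76. Both mutants lay below both controls for 29 of the 30 members, where 36.3% of all genes did so, and both lay above for 1, where 36.0% of all genes did. Among the 24 members with a mean of at least 50 CPM, 20 fell, and 19.6% of all genes at that level fell. The sum of all members was 7295 and 7304 CPM in controls 47 and 50, 3137 CPM in mutant 51 and 4538 CPM in mutant 54. Mutant 51 was thus the lower of the mutants, and its value was under that of mutant 54 for 25 of 30 members, against 52.4% of all genes. The median difference from the control mean was -1.10 in mutant 51 and -0.69 in mutant 54 on the log2(CPM + 1) scale.

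**Figure D1:**
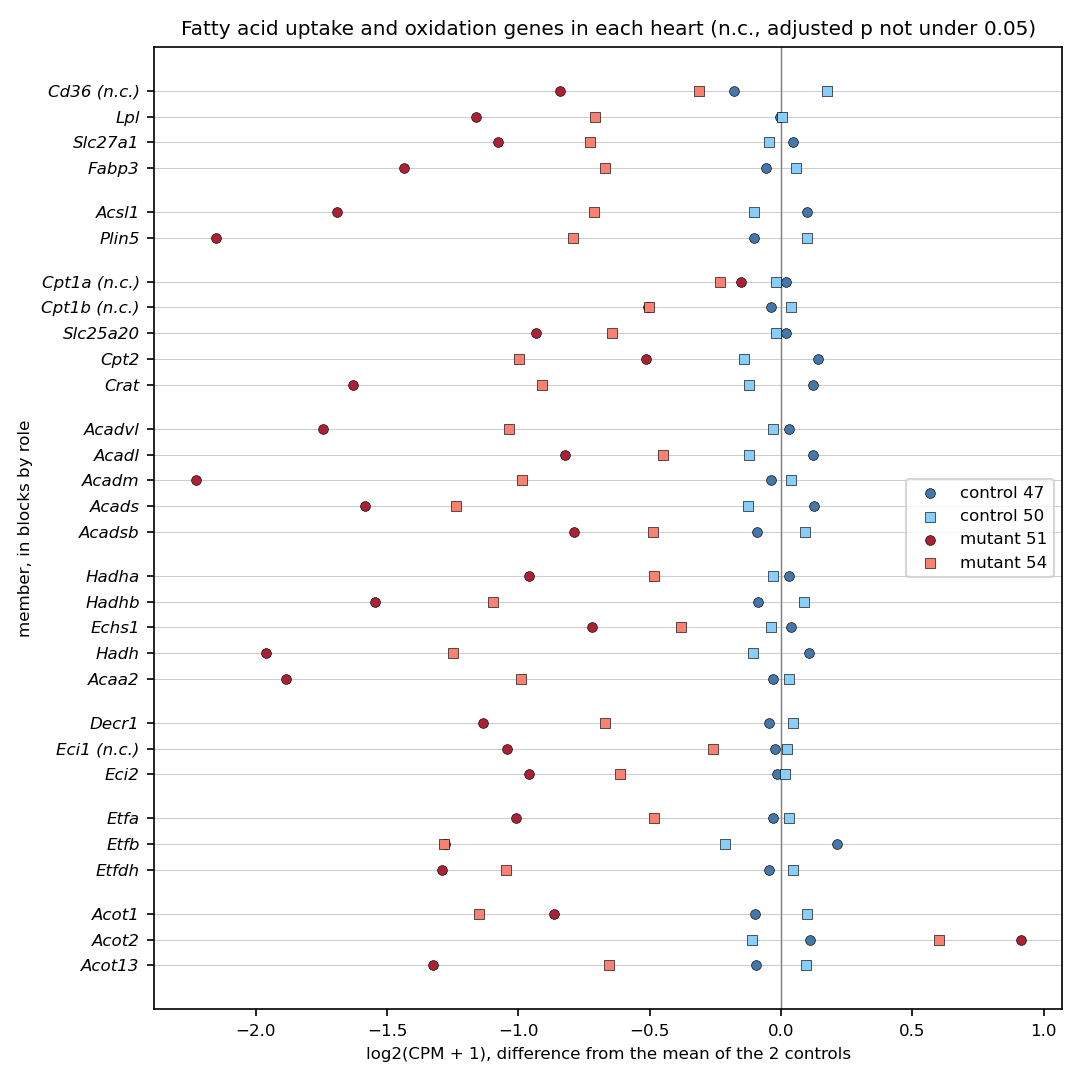
Each row is 1 member, in blocks by role, and each point is 1 heart, placed by the difference of its log2(CPM + 1) from the mean of the 2 controls. Mutants 51 and 54 lie left of both controls for every member plotted except Acot2, and mutant 51 is usually the farther of the pair.

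The calls depend on having both controls. Without control 47 or without control 50, limma called 1 member lower and 0 higher, with the lone control assumed to vary like the mutants. At an unadjusted p under 0.05 these fits had 19 and 22 members lower and 1 higher. The member was Etfdh without control 47 and Acads without control 50. The median of the members was -0.94 and -0.90 in these fits, so the size of the difference moved little while the calls were lost. Without mutant 51 the median was -0.69, with 23 members lower, and without mutant 54 it was -1.10, with 27 lower.

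**Figure D2:**
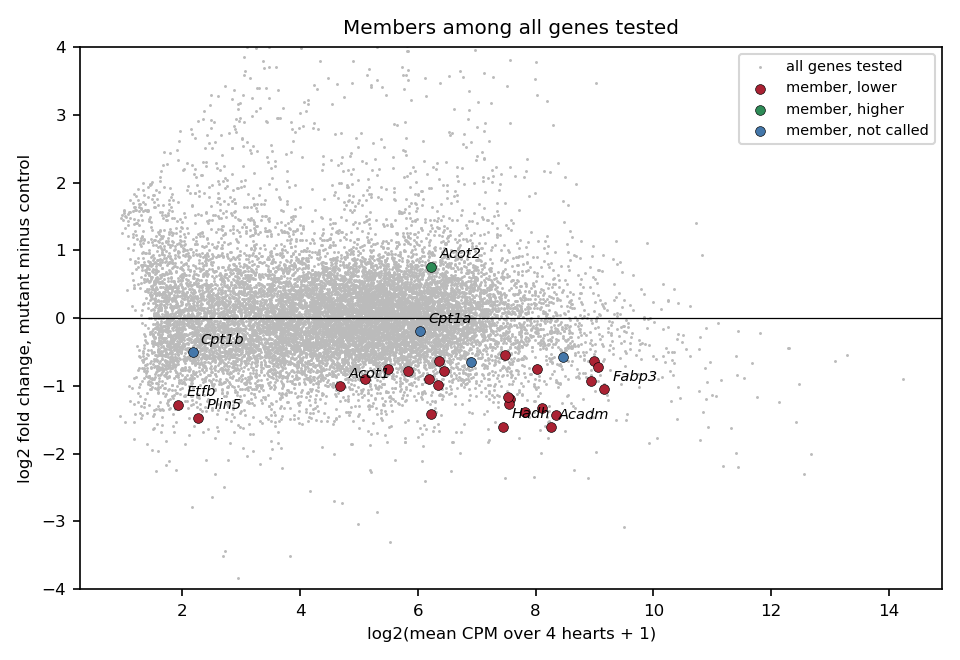
Every gene tested is a grey point, with log2(mean CPM over the 4 hearts + 1) across and the log2 fold change, mutant minus control, upward, and members are coloured by their call. The axis ends at 4 in both directions and leaves out 113 genes beyond it. Members form a band below 0 across the whole range of levels, with Acot2 as the single coloured point above it.

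Levels between genes were compared as CPM per kilobase of exon, over the union of all annotated exons in GENCODE M21, which counts retained introns and lengthens some genes. On this scale Fabp3, the fatty acid-binding protein of heart muscle, was the highest member in the controls, at 932 ± 53.4 CPM per kb (SD, n = 2). Acaa2, a thiolase, and Acadl, the long-chain acyl-CoA dehydrogenase, followed at 307 ± 9.00 and 307 ± 36.5 CPM per kb and did not differ beyond their spread. Next came Etfa, a subunit of the electron transfer flavoprotein, at 177 ± 5.10 CPM per kb, and Acot13, a thioesterase, at 142 ± 13.5 CPM per kb. The lowest levels were those of Etfb at 3.77 ± 0.958, Plin5 at 2.82 ± 0.325 and Cpt1b at 1.27 ± 0.0603 CPM per kb, of which Etfb and Plin5 did not differ beyond their spread. With the length of the principal transcript in place of the union, Fabp3 remained first, and Etfb, Plin5 and Cpt1b remained the last. Between them the order depended on the length used: Acot13 went from rank 5 to rank 10 and Acadm from 8 to 5. Control levels moved for some members by over 1.5 times, as for Acadm from 115 to 219, Hadhb from 59.3 to 191 and Echs1 from 25.4 to 135 CPM per kb. From controls to mutants, by the union length, Acot2 went from rank 18 to rank 10, the largest move of any member.

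Of the 4 genes of uptake and binding, 3 fell. Lpl, the lipase that frees fatty acids from circulating lipoproteins, stood at 640 and 643 CPM in controls 47 and 50 and at 286 and 392 CPM in mutants 51 and 54. The controls were nearly equal, and both mutants were far below them, with a log2 fold change of -0.94 (SE 0.18, limma adjusted p = 0.0101). Slc27a1, a fatty acid transport protein, went from 44.9 and 42.2 CPM to 20.1 and 25.9 CPM, a log2 fold change of -0.90 (SE 0.16, limma adjusted p = 0.00745). Fabp3 stood at 736 and 798 CPM in the controls, 283 CPM in mutant 51 and 481 CPM in mutant 54, and it fell by 1.05 on the log2 scale (SE 0.25). Cd36, the main surface receptor for long-chain fatty acids, was at 369 and 472 CPM in the controls and at 232 and 335 CPM in the mutants. The groups did not overlap for Cd36, but hearts of the same group were far apart, in controls and mutants alike. Its log2 fold change of -0.58 (SE 0.21, limma adjusted p = 0.0733) did not pass. Cd36 was past the threshold with DESeq2, with upper-quartile scaling and without mutant 54.

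Both genes of activation and droplet coating fell. Acsl1, the main long-chain acyl-CoA synthetase of heart, stood at 276 and 240 CPM in the controls, 79.1 CPM in mutant 51 and 157 CPM in mutant 54. It fell, with a log2 difference of -1.20 (SE 0.29, limma adjusted p = 0.0203), and the mutants differed from each other by more than the controls did. Plin5, a coat protein that ties lipid droplets to mitochondria, was at 5.40 and 6.36 CPM in the controls, 0.544 CPM in mutant 51 and 2.97 CPM in mutant 54. The value in mutant 51 rests on 5 reads. The log2 fold change of Plin5 was -1.47 (SE 0.44, limma adjusted p = 0.0425), and the call was lost with edgeR's quasi-likelihood test and without mutant 51, control 47 or control 50.

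In the carnitine shuttle 3 of 5 genes fell, and the entry enzyme was among those that did not pass. Cpt1a, the carnitine palmitoyltransferase of the outer mitochondrial membrane that is prominent in the fetal heart, stood at 69.9 and 67.9 CPM in the controls and at 61.8 and 58.5 CPM in the mutants. Both mutants were a little below both controls, with a log2 fold change of -0.19 (SE 0.11, limma adjusted p = 0.227), the smallest difference of any member in either direction. Cpt1b, the isoform of adult heart and skeletal muscle, was at 4.14 and 4.43 CPM in the controls and 2.72 and 2.73 CPM in the mutants, and its log2 fold change of -0.50 (SE 0.25, limma adjusted p = 0.159) did not pass.

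The 3 genes that act behind these enzymes fell. Slc25a20, the carrier that exchanges acylcarnitine for carnitine across the inner membrane, went from 72.2 and 70.1 CPM to 36.8 and 45.2 CPM, a log2 fold change of -0.79 (SE 0.14, limma adjusted p = 0.00718). Crat, which makes acetylcarnitine from acetyl-CoA, went from 282 and 239 CPM to 83.4 and 138 CPM, a log2 fold change of -1.27 (SE 0.23, limma adjusted p = 0.00785). Cpt2, which returns the acyl group to coenzyme A in the matrix, also fell, from 61.0 and 50.1 CPM to 38.4 and 27.2 CPM. Here mutant 54 was the lower of the mutants, unlike for most members.

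All 5 acyl-CoA dehydrogenases fell. These enzymes catalyse the first step of each round and differ in the chain length they prefer. Acads, for short chains, stood at 117 and 98.3 CPM in the controls and at 35.1 and 45.0 CPM in the mutants, a log2 fold change of -1.41 (SE 0.16, limma adjusted p = 0.00129). Acadvl, for very long chains, went from 329 and 316 CPM to 95.5 and 157 CPM, a log2 fold change of -1.39 (SE 0.22, limma adjusted p = 0.00491). Acadm, for medium chains, was at 437 and 461 CPM in the controls, 94.9 CPM in mutant 51 and 226 CPM in mutant 54. Its log2 fold change of -1.61 came with the largest SE of the 5 dehydrogenases (0.35), because the mutants were far apart. Acadl, for long chains, and Acadsb, for short branched chains, had smaller log2 fold changes, -0.64 each (SE 0.18 and 0.14). Acadl stood at 667 and 564 CPM in the controls and at 346 and 449 CPM in the mutants, and its call was lost without mutant 51, without control 47 and without control 50. Whether Acadl and Acadsb changed less than the others was not tested.

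Of Acadvl's exonic bases, 42.9% lie opposite exons of Dvl2, a gene of Wnt signalling on the other strand. Dvl2 stood at 195 and 180 CPM in the controls and at 94.7 and 121 CPM in the mutants. The library kit keeps the strand, but whether counting used it is not stated, so reads of these genes may not be fully separated. Fabp3 likewise shares 19.6% of its exonic bases with genes on the other strand, among them Zcchc17. Zcchc17 stood at 111 and 102 CPM in the controls and at 45.9 and 63.9 CPM in the mutants. Other members share less with the other strand, the most being Acsl1 at 9.91% and Crat at 8.72%.

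All 5 genes of the later steps fell. Hadh, the hydroxyacyl dehydrogenase for shorter chains, stood at 280 and 241 CPM in the controls and at 66.1 and 109 CPM in the mutants, a log2 fold change of -1.61 (SE 0.23, limma adjusted p = 0.00310). Echs1, the hydratase that acts just before it, fell by 0.55 on the log2 scale (SE 0.14), from 216 and 205 CPM to 127 and 161 CPM. Acaa2, which cleaves off acetyl-CoA, fell by 1.44 on the log2 scale (SE 0.27), from 456 and 476 CPM to 126 and 234 CPM.

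Hadha and Hadhb encode the alpha and beta subunits of the trifunctional protein, which carries out the hydratase, dehydrogenase and thiolase steps on long chains. They are neighbours that run in opposite directions on chromosome 5 (GRCm38, GENCODE M21), Hadha from 30118304 to 30155162 on the minus strand and Hadhb from 30155248 to 30184593 on the plus strand. Only 85 bases lie between their annotated starts, and these are shown because both genes of this head-to-head pair fell. The sequence is the plus strand at chr5:30155163-30155247 from RefSeq, build GRCm38.p6, 5′ to 3′, and the capitals mark 2 copies of the GC box GGGCGG.
Hadha-Hadhb gap: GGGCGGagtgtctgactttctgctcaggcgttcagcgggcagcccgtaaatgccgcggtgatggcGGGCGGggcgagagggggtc
Hadhb stood at 368 and 414 CPM in the controls and at 133 and 182 CPM in the mutants, a log2 fold change of -1.32 (SE 0.17, limma adjusted p = 0.00239). Hadha went from 673 and 644 CPM to 338 and 471 CPM, a log2 fold change of -0.72 (SE 0.19, limma adjusted p = 0.0276). The ratio of Hadhb to Hadha CPM was 0.546 and 0.643 in the controls and 0.393 and 0.386 in the mutants. This is a description, as the pair was chosen after its values were seen. Among single genes tested, 72.2% had groups that did not overlap in level. Of the windows of 150 bases, the read length, in Hadhb transcripts, 11.8% also occur in Gm13910.

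The isomerases and the reductase prepare unsaturated chains for the cycle, and 2 of the 3 fell. Eci2, an enoyl-CoA isomerase, went from 108 and 110 CPM to 55.7 and 71.0 CPM, a log2 fold change of -0.79 (SE 0.14, limma adjusted p = 0.00799). Decr1, the dienoyl-CoA reductase, went from 90.3 and 96.5 CPM to 42.0 and 58.3 CPM, a log2 fold change of -0.90 (SE 0.17, limma adjusted p = 0.00860). Eci1, the other isomerase of the mitochondrial matrix, was at 141 and 145 CPM in the controls, 68.9 CPM in mutant 51 and 119 CPM in mutant 54. Mutant 54 lay much nearer to the controls than mutant 51 did, and the log2 fold change of -0.65 (SE 0.24, limma adjusted p = 0.0719) did not pass. Eci1 was past the threshold with upper-quartile scaling, with quantile normalization and without mutant 54.

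All 3 genes of electron transfer fell. Etfdh, which passes electrons from the flavoprotein to ubiquinone, stood at 248 and 264 CPM in the controls and at 104 and 123 CPM in the mutants, a log2 fold change of -1.17 (SE 0.13, limma adjusted p = 0.00123). Its mutants were close together, and its p was the smallest of the members. Etfa, the alpha subunit of the flavoprotein, went from 318 and 331 CPM to 161 and 231 CPM, a log2 fold change of -0.75 (SE 0.18). Etfb, the beta subunit, was far less abundant in the table, at 5.17 and 3.60 CPM in the controls and 1.20 and 1.19 CPM in the mutants. Its log2 fold change of -1.28 (SE 0.29, limma adjusted p = 0.0171) rests on 11 and 10 reads in the mutants.

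The low levels of Etfb and Cpt1b stand beside an overlap in the annotation. Of Etfb's exonic bases (chromosome 7, 43444083 to 43457800), 58.2% are shared on the same strand with other genes, mainly Gm45233, and 30.6% of its read-length windows occur in transcripts of Gm45233. Of Cpt1b's exonic bases (chromosome 15, 89416405 to 89425863), 81.4% are shared with Gm44502, which runs through both Cpt1b and its neighbour Chkb, and 72.7% of its windows occur there. No label says how reads that lie in several genes were counted, so the levels of both genes are uncertain, and the part of the overlap in them was not tested.

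The thioesterases, which release free fatty acids from coenzyme A, moved in both directions. Acot1, the cytosolic form, stood at 30.8 and 35.5 CPM in the controls and at 17.7 and 14.4 CPM in the mutants, a log2 fold change of -1.01 (SE 0.17, limma adjusted p = 0.00613). Acot2, the mitochondrial form, stood at 58.9 and 50.3 CPM in the controls and at 103 and 83.1 CPM in the mutants, a log2 fold change of 0.76 (SE 0.15, limma adjusted p = 0.0108), where 17.8% of all genes rose. Acot13, a small thioesterase of mitochondria and cytosol, fell from 98.3 and 112 CPM to 41.4 and 66.4 CPM. The ratio of Acot2 to Acot1 CPM was 1.91 and 1.42 in the controls and 5.83 and 5.79 in the mutants. This pair, too, was chosen after its values were seen, and the ratio is given as a description.

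Acot1 and Acot2 are close paralogs in tandem on chromosome 12 (GRCm38), Acot2 from 83987861 to 83993873 and Acot1 from 84009490 to 84018371, with 15616 bases between them. Of their read-length windows, 6.92% of those of Acot1 also occur in Acot2, Acot3 or Acot5, and 10.2% of those of Acot2 occur in Acot1, so single reads may be split uncertainly. Their upstream stretches are shown because these neighbours moved in opposite directions. Both are plus strand from RefSeq, build GRCm38.p6, 5′ to 3′, ending at the base before the annotated start, at chr12:83987611-83987860 for Acot2 and chr12:84009252-84009489 for Acot1. Capitals mark the CCAAT box, which lies on the minus strand in Acot2 and on the plus strand in Acot1.
Acot2: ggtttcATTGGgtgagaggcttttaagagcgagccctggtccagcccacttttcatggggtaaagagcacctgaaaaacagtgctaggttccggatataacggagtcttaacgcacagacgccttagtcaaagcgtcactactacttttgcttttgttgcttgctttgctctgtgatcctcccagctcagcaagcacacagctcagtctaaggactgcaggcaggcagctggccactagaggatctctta
Acot1: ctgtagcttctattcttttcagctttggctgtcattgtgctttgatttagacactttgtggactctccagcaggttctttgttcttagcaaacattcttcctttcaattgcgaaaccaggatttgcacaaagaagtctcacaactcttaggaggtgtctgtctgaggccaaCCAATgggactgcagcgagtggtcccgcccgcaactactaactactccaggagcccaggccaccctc

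Motifs were searched on both strands in the RefSeq promoters, 300 bases each, of 25 members, and 6 members had no promoter in that table. A member counted if any of its promoters matched, with 29 promoters for the 25 members. The share over all promoters counts each promoter singly, so the shares differ in unit. The element of PPAR and RXR pairs, 2 copies of AGGTCA with 1 base of any kind between them, was in no member promoter and in 0.0396% of all 32851 promoters. A looser form, 2 copies of AGGNCA spaced the same way, was in no member promoter either, and in 0.381% of all. The element TCAAGGTCA of estrogen-related receptors was in no member promoter and in 0.423% of all. These windows reach from 250 bases before the start to 50 bases after it, and the absence of these letters says nothing of the factors. The E-box CACGTG was in 1 member promoter, that of Slc27a1, and in 7.15% of all. The GC box GGGCGG was in the promoters of 19 of 25 members, or 76.0%, and in 35.7% of all promoters. The CCAAT box was in 12 of 25, or 48.0%, and in 37.4% of all. The GC box and the CCAAT box were added after the sequences were seen, and the table of all promoters includes many genes that are not expressed in heart.

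Ratios of CPM between partner genes of the same step or complex were taken in each heart for 9 pairs chosen after their values were seen, and they are given as a description without correction for length. The groups did not overlap for 7 of the 9 pairs. Among single genes tested, 72.2% had groups that did not overlap in level. No such share was computed for ratios between genes, so the count of pairs has no background of its own and is not a result about them. The ratio of Hadh to Echs1, consecutive enzymes, was 1.30 and 1.18 in the controls and 0.519 and 0.674 in the mutants. The ratio of Acads to Acadsb was 1.28 and 0.940 in the controls and 0.624 and 0.646 in the mutants. The ratio of Acadm to Acadl went from 0.654 and 0.816 to 0.274 and 0.503, so the medium-chain enzyme was lower relative to the long-chain one in both mutants. The ratio of Etfdh to Etfa went from 0.780 and 0.797 to 0.645 and 0.532. Cpt2 to Slc25a20 and Eci2 to Eci1 overlapped between the groups. With 2 hearts a group, 0.333 is the smallest two-sided p of an exact permutation test, and none was run.

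**Figure D3:**
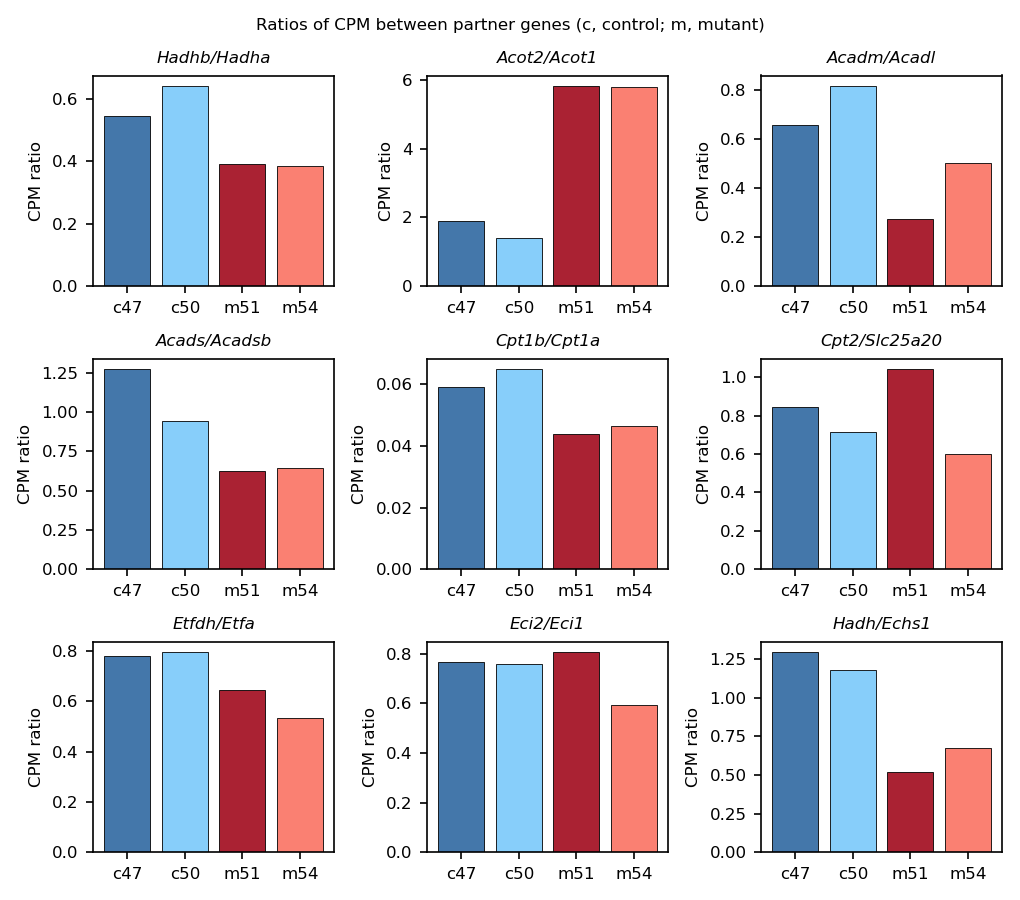
Each panel gives the ratio of CPM between the partner genes named above it, with 1 bar per heart (c47 and c50, controls; m51 and m54, mutants), on axes that start at 0. Acot2 to Acot1 is higher in both mutants than in both controls, and Hadhb to Hadha, Hadh to Echs1 and Acads to Acadsb are lower in both.

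Markers of cardiac muscle were lower in the mutants too. Of 18 cardiomyocyte markers 9 fell and 0 rose by limma, where 14.2% and 17.8% of all genes tested did. The count of rises was also 0 at an unadjusted limma p under 0.05. DESeq2 called 13 lower, edgeR 7, and neither any higher. Their median was -0.96 on the log2 scale, close to the -0.92 of the fatty acid genes. The smallest p among them were those of Myl7, an atrial myosin light chain, at -1.51 (SE 0.25), Casq2, a calcium store protein, at -1.50 (SE 0.26), and Tnni1, the fetal troponin I, at -1.19 (SE 0.24). Their summed level was 110.6% and 89.4% of the control mean in controls 47 and 50, 44.7% in mutant 51 and 68.3% in mutant 54, while that of the fatty acid genes was 99.9%, 100.1%, 43.0% and 62.2%. The marker sum is weighted toward its most abundant genes. The largest, Myh7, stood at 14573 and 9145 CPM in controls 47 and 50 and at 6706 and 9386 CPM in mutants 51 and 54. Its groups overlapped, and it was not called. Of 10 fibroblast markers 5 fell by limma (Lum, Pdgfra and Dcn with the smallest p), where 14.2% of all genes tested fell. For these fibroblast markers edgeR called 5 lower and DESeq2 8, and neither any higher. Their summed level was 58.0% in mutant 51 and 68.9% in mutant 54. Of 12 endothelial markers limma, edgeR and DESeq2 called 0, and 0 had an unadjusted limma p under 0.05, with a summed level of 87.3% and 93.4% in the mutants, against 87.0% and 113% in the controls. Of 5 listed leukocyte markers 2 rose by limma, Ptprc and Cd68, of which DESeq2 called only Ptprc. By limma 17.8% of all genes tested rose, and a count this small is not a result about the list. Csf1r was nearly level (-0.03), Adgre1 did not pass (0.59), and Lyz2 did not pass and was lower in both mutants (-0.89). Of 7 listed erythroid markers limma, edgeR and DESeq2 called 0, with 5 lower at an unadjusted limma p under 0.05. The summed erythroid level ranged from 689 CPM in mutant 51 to 13190 CPM in control 50. Of 8 brown fat markers only Cidea, Dio2 and Prdm16 were listed, Prdm16 rose by limma and edgeR but not by DESeq2 (adjusted p = 0.108), and Ucp1 and Adipoq were not listed. The part of cell composition in the fall of the fatty acid genes was not tested.

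**Figure D4:**
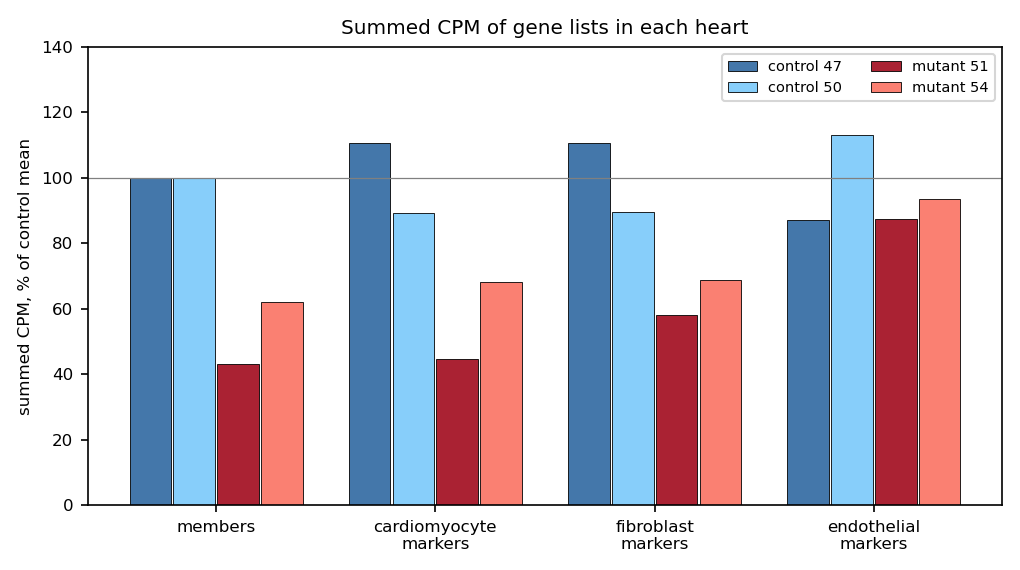
Bars give the summed CPM of each gene list in each heart as a percent of the mean of the 2 controls, on an axis that starts at 0. The fatty acid genes and the cardiomyocyte markers stand near each other in mutant 51 (43.0% and 44.7%) and in mutant 54 (62.2% and 68.3%). The fibroblast markers are at 58.0% in mutant 51 and 68.9% in mutant 54, and the endothelial markers at 87.3% and 93.4%.

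Each member was also taken as a share of the summed cardiomyocyte markers. The sum of the members was 10.4% and 12.8% of the summed cardiomyocyte markers in controls 47 and 50, and 11.0% and 10.4% in mutants 51 and 54. By this share, chosen after the data were seen, 16 of 30 members overlapped between the groups, 10 were lower in both mutants and 4 were higher in both. Of all genes tested, 76.2% did not overlap by this share, with 3.79% lower and 72.4% higher in both mutants, where the marker sum was at 44.7% and 68.3% of its control mean. The lower ones were Acsl1, Plin5, Crat, Acadvl, Acadm, Acads, Hadhb, Hadh, Acaa2 and Etfb. The higher ones were Cpt1a, Acadl, Echs1 and Acot2. Hadh was at 0.399% and 0.424% of the marker sum in the controls and at 0.232% and 0.250% in the mutants. Cpt1a was at 0.0994% and 0.119% in the controls and at 0.217% and 0.135% in the mutants.

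Most regulators of the pathway were not called, and those called moved in both directions. Of 14 listed PPAR, ERR and PGC-1 regulators 3 rose and 1 fell by limma, where 17.8% and 14.2% of all genes tested did. Counts this small are not set apart from that background, and they are not a result about the list. The median over the list was 0.10 on the log2 scale. Ppargc1a, the coactivator PGC-1 alpha of mitochondrial genes, went from 158 and 135 CPM to 249 and 371 CPM, a log2 fold change of 1.05 (SE 0.20, limma adjusted p = 0.00926). Esrrg, an estrogen-related receptor of heart, went from 42.4 and 44.0 CPM to 70.5 and 88.0 CPM, a log2 fold change of 0.85 (SE 0.14, limma adjusted p = 0.00580). For both, mutant 54 was the higher one, and both mutants were above both controls. Nrip1, a corepressor of these receptors, rose by 0.53 (SE 0.16, limma adjusted p = 0.0407), a call lost with DESeq2 (adjusted p = 0.0964). Esrra, the related receptor ERR alpha, fell by 0.49 (SE 0.15, limma adjusted p = 0.0491), and neither edgeR nor DESeq2 called it. Ppara, the receptor that binds fatty acids, was at 18.0 and 15.9 CPM in the controls and at 12.9 and 23.5 CPM in the mutants, and the groups overlapped.

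Beyond the members, enzymes of neighbouring mitochondrial pathways fell and genes of the fuel switch mostly did not pass. Of 16 other mitochondrial acyl-CoA and ketone enzymes 13 fell and 0 rose by limma, with a median of -0.91. edgeR called 13 lower and DESeq2 12, limma had 14 lower at an unadjusted p under 0.05, and 0 rose by any of these. Oxct1, which activates ketone bodies for use as fuel, went from 500 and 497 CPM to 158 and 209 CPM, a log2 fold change of -1.45 (SE 0.16, limma adjusted p = 0.00119). Gcdh, of lysine breakdown, had a log2 fold change of -1.42 (SE 0.17) and Ivd, of leucine breakdown, one of -1.68 (SE 0.20). Of 13 listed peroxisomal genes 4 fell, among them Scp2, a thiolase and lipid carrier, at a log2 fold change of -0.95 (SE 0.13), Hsd17b4, a bifunctional enzyme, at -1.32 (SE 0.20), and Ech1, an isomerase, at -1.13 (SE 0.21). Of 9 genes of malonyl-CoA and the pyruvate dehydrogenase switch, Pdk1 and Pdk2, kinases that inhibit pyruvate dehydrogenase, had log2 fold changes of -1.23 (SE 0.14) and -0.82 (SE 0.15), and no other gene of the list passed. Of 15 other uptake, binding and activation genes 5 fell and 0 rose by limma, while edgeR and DESeq2 each called 1 higher. Dbi, an acyl-CoA-binding protein, went from 103 and 110 CPM to 24.0 and 32.2 CPM, a log2 fold change of -1.89 (SE 0.16, limma adjusted p = 0.000310). Fabp4, a binding protein of capillary endothelium and fat, had a log2 fold change of -0.88 (SE 0.15), and Acsl3, a further synthetase, one of -0.89 (SE 0.17). These related lists held 92 tested genes, of which 31 fell and 3 rose by limma, where 14.2% and 17.8% of all genes tested did. Most of these calls were lost without control 47 and without control 50, in both directions.

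**Figure D5:**
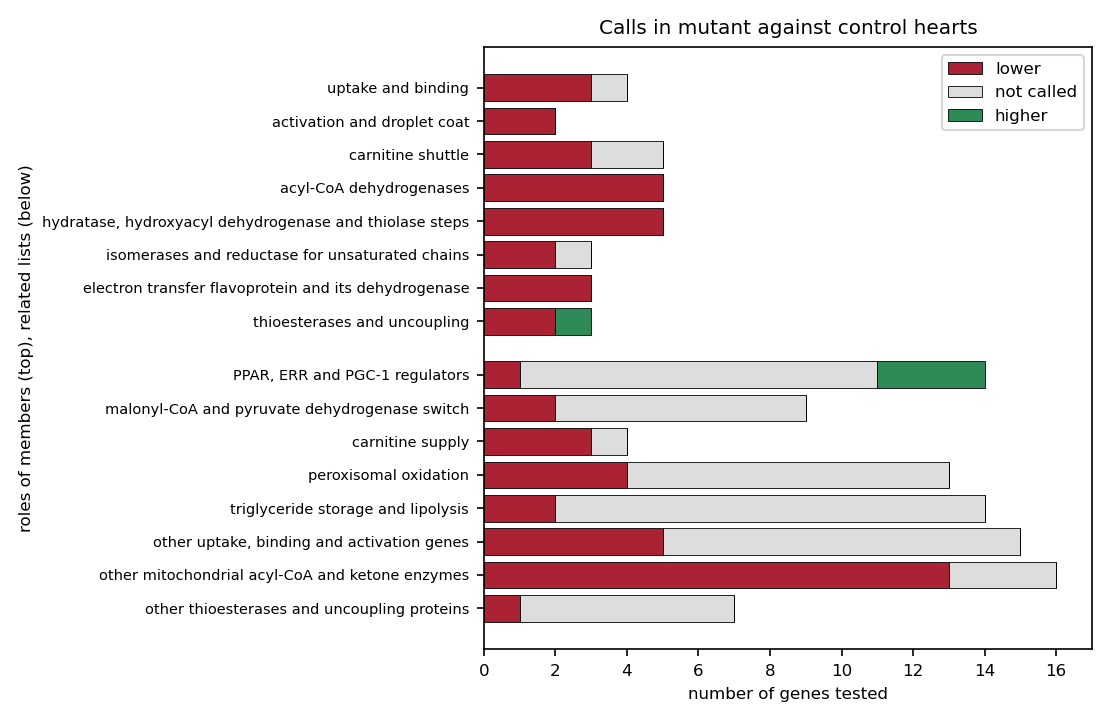
Each bar is a gene list, with the number of genes tested split into those called lower, not called and called higher in the mutants, roles of the members above and related lists below. All 5 dehydrogenases and all 5 genes of the later steps were called lower, and 3 of 14 regulators were called higher by limma. Among all genes tested, 14.2% were called lower and 17.8% higher.

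In the authors' deposited table, 24 of the 30 members have an adjusted p-value under 0.05, where 30.9% of all listed genes do. In the authors' deposited table Acadl is at 0.0505, just past that limit. Plin5 is at 0.0746, and Cd36, Cpt1a, Cpt1b and Eci1 are higher still.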

How the data were processed

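Hearts of 4 embryos were sequenced as 1 library each, from total RNA extracted with Trizol, per the labels' protocols. Poly(A) RNA was sequenced in pairs of 150 bases. Per the submitters' processing notes, fastp 0.20.0, STAR, edgeR 3.10 and DESeq were used with GRCm38; the sources used here do not give the counting tool, strand setting or annotation. The deposited signal is headed CPM, per the file headers, but is not relative to the listed total, since columns sum to between 935156 and 1034350. The deposited adjusted p-value (FDR) is the authors' own, and genes of low value are absent, the smallest row maximum being 2.29 CPM. All values (100%) in a column were whole multiples, to within 0.001 reads, of what 1 read is worth, so whole reads were recovered. edgeR's quasi-likelihood test (4.0.16) on those reads called 24 members lower and 1 higher (over all genes, 1982 lower and 2706 higher), and DESeq2 (1.42.0) called 26 and 1 (1556 and 2118).

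The test had been designed for counts or CPM, and the form for CPM was used. Genes under 1 CPM in all but 1 library or in every library were dropped, and log2(CPM + 1) of the other 14869 was compared between genotypes with limma-trend (limma 3.58.1, R 4.3.3), two-sided, with Benjamini-Hochberg adjustment over all of them and a threshold of 0.05. A positive fold change is higher in mutants, and the pseudocount shrinks those of low genes. The labels give each library its own embryo, and with 2 per group the variance is drawn toward a trend over all genes. The fit was tested on simulated data first.

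Symbols and positions are those of GENCODE M21, which matched 14916 identifiers. Promoters are RefSeq's. Every member is accounted for, with full statistics for the 2 of smallest p in each role and for each that rose or did not pass, and related lists are named by their smallest p, up to 3 in each direction, apart from Ppara, which was named after its values were seen. The members, lists and rules were chosen with earlier results of these data known. Counting limits cover counting error only.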

Additional observations from a re-analysis of the deposited data

How the results depend on the processing

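No paired analysis was possible because the replicate numbers are embryo numbers that no 2 libraries share. Members lower numbered between 24 and 27, and members higher 1, under the 9 alternatives to pseudocount, filter, scaling and test. Leaving out 1 library moved more. Members lower ranged from 1 to 27 and members higher from 0 to 1, genes lower from 37 to 2750 and genes higher from 534 to 2905, and companion genes lower from 1 to 34 and higher from 0 to 6, with the lowest values in the fits without 1 control. The median of the members ranged from -1.10 to -0.69 over the same 4 fits. With CPM rescaled without mitochondrial genome genes, 5 companion genes rose in place of 3. Without the 6 members that share over 5% of their read-length windows with another gene (Cpt1b, Etfb, Acot1, Acot2, Fabp3 and Hadhb), an alternative chosen after seeing the data, 21 of 24 members were lower and 0 higher by limma, the riser Acot2 being among those left out. No member changed direction under any alternative. Each called member kept its call under those of the 9 alternatives that gave it a value, except Plin5, which lost it with edgeR's test; Cpt1b and Etfb have no value under the 5 CPM filter. With 2 hearts per group, depth limits chiefly Plin5, Etfb and Cpt1b.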

Other observations

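Genes that store and release triglyceride were mostly not called. Of 14 listed genes 2 fell and 0 rose by limma, edgeR and DESeq2, with 2 higher at an unadjusted limma p under 0.05. By limma 14.2% of all genes tested fell, so the count of falls is near the background and is not a result about the list. The median over the list was 0.08 on the log2 scale. Mgll, which hydrolyses monoglycerides, went from 92.4 and 102 CPM in the controls to 24.5 and 38.3 CPM in the mutants, a log2 fold change of -1.63 (SE 0.20, limma adjusted p = 0.00201). Plin4, a droplet coat protein, went from 30.2 and 38.0 CPM to 8.92 and 13.9 CPM, a log2 fold change of -1.52 (SE 0.23, limma adjusted p = 0.00429).

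Of 4 listed genes of carnitine supply 3 fell, where DESeq2 called 1. Aldh9a1 and Tmlhe, enzymes of carnitine synthesis, had log2 fold changes of -0.76 (SE 0.17) and -0.64 (SE 0.18), and Crot, a peroxisomal carnitine acyltransferase, one of -0.54 (SE 0.13). Of 7 other listed thioesterases and uncoupling proteins only Acot11 was called, and it fell by 0.65 on the log2 scale (SE 0.16). This count, too, is near the 14.2% of all genes tested that fell. Acot3, Acot4 and Acot5, neighbours of Acot1, were not listed.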
